A study of Bos taurus with 8 samples.

Results

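The 10 genes described here are CRYGS, LYPD8, PPP1R1B, TAC3, PNOC, POP1, EHD1, CPXM2, CORO1B and SFXN1. They were picked from these same arrays because their signal was high in lame cows and because this was unexpected. The array design held 19 probes for the 10 genes among 43653 noncontrol probes. Of the 19 probes, 16 passed the filter, being well above background on all arrays of 1 group or more, and each of the 10 genes had a kept probe among the 15127 genes kept in all. The lame group came from crossbred cows. It was set against normal crossbred cows and normal cows of the Tharparkar, a zebu breed of India. RNA came from peripheral blood mononuclear cells, a mixture of lymphocytes and monocytes spun out of blood, and was measured on 4 lame crossbred, 2 normal crossbred and 2 normal Tharparkar arrays with 1 colour of dye. The labels used here name no age, no cause or degree of lameness and no treatment, and they do not say whether an RNA sample was 1 cow or a pool.

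Several of the 10 genes are best known from other tissues. TAC3 and PNOC encode precursors from which neurons cut short signalling peptides, neurokinin B and nociceptin. CRYGS encodes a structural protein of the eye lens, and PPP1R1B, also called DARPP-32, relays dopamine signals in striatal neurons of rodents by inhibiting protein phosphatase 1. LYPD8 is known in mice as a protein that colon epithelium releases onto its surface, where it binds flagellated bacteria, and CPXM2 is a secreted member of the M14 carboxypeptidase family. The other 4 serve most cells: EHD1 returns internalised membrane proteins to the cell surface, CORO1B binds actin filaments and helps to take apart their branches, POP1 is a protein subunit of the enzymes RNase P and RNase MRP, and SFXN1 carries serine into mitochondria.

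Between 52.8% and 61.4% of probes were well above background on 7 arrays, and 70.9% on lame R2_2. The lame R2 arrays had the highest shares (61.4% and 70.9%). A probe well above background on some of the lame arrays alone is therefore not read as raised in lame. The median raw signal of negative control spots was 107 on lame R2_2, against 53 to 65 on the other arrays. The 2 numbers in a lame title are read here as the RNA sample and the slide, and lame R1 and lame R2 as 2 RNA samples with 2 arrays each. Over kept genes the correlation between arrays was 0.995 for the lame R1 pair and 0.981 for the lame R2 pair. It was 0.997 and 0.995 for the normal crossbred and Tharparkar pairs, against 0.951 to 0.970 between lame R1 and lame R2. Between lame and normal crossbred arrays it was 0.942 to 0.966, a range that overlapped with that between lame R1 and lame R2. Because the arrays include technical duplicates, every p-value below measures the spread between arrays and is too small as a test of cows. Of the markers that define blood mononuclear cells, 10 of 11 T cell, 5 of 5 B cell and 11 of 11 monocyte genes on the array were kept.

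Levels are log2 signals relative to the 75th percentile of their own array, so a value of 0 is the brightness below which 75% of the array's probes lay. Apart from the choice of probe, levels of different probes were not compared with each other. For each gene the kept probe with the highest mean over the 8 arrays was used. Lame arrays were 4 of the 8, so this choice favoured probes bright in lame arrays. The EHD1 probe used was dimmer than another EHD1 probe in normal crossbred (0.43 against 0.98) and Tharparkar arrays (0.02 against 1.31). For CORO1B the lame means were 0.91 on the probe used and -3.28 on the other kept probe, against -4.26 and -4.32 in normal crossbred arrays. On the probe used every lame array lay above every normal array for 9 of the 10 genes, which was so for 7.02% of all genes. In the limma fit over all genes, 10 of the 10 were called higher in lame than in normal crossbred arrays at an adjusted p under 0.05, against 3.29% of all genes. Against Tharparkar arrays 9 were called higher, against 12.6% of all genes. With slide as a block the call of PPP1R1B was lost in both comparisons, leaving 9 and 8. These counts follow from how the genes and their probes were picked, so they describe the set and are no test of it. Each of the 10 probes was also well above background on both arrays of a normal group or of both. In RNA from a mixture of cells, more cells of a type and more RNA per cell cannot be told apart.

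**Figure D1:**
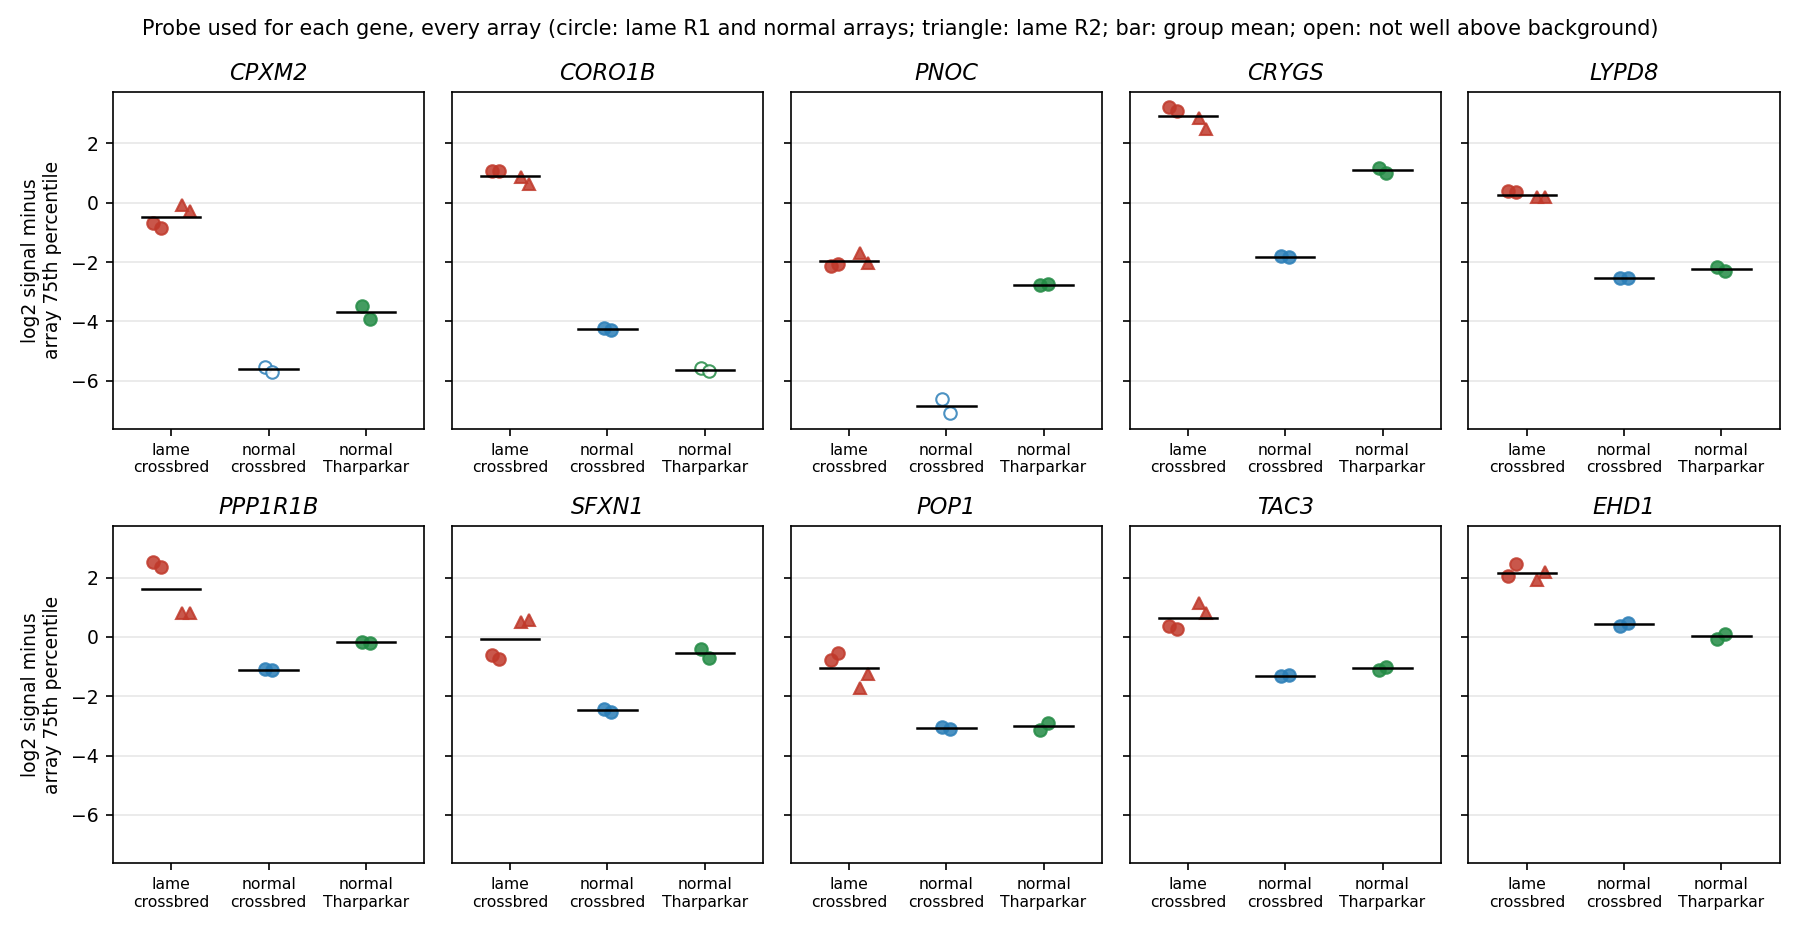
Level of each of the 10 genes on every array (log2, relative to the 75th percentile of the array, vertical axis) for lame crossbred, normal crossbred and normal Tharparkar arrays. Circles are lame R1 or normal arrays, triangles lame R2 arrays, bars group means, and open symbols are not well above background. For 9 genes the lame arrays lie above both normal groups, and for SFXN1 the lame R1 arrays lie among the Tharparkar arrays.

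Among the secreted products, TAC3 was the neuropeptide gene with a measured level in all 3 groups. It read 0.36 and 0.28 on the lame R1 arrays and 1.16 and 0.79 on the lame R2 arrays. It read -1.33 and -1.30 on the normal crossbred arrays and -1.10 and -1.003 on the Tharparkar arrays. The 4 lame arrays were highest and the 2 normal groups lay close together, with no overlap between lame and normal. The mean was 0.65 ± 0.41 (SD, n = 4 arrays) in lame arrays, 1.96 above normal crossbred arrays (3.90-fold) and 1.70 above Tharparkar arrays (3.25-fold). Between the normal groups TAC3 differed by -0.26 (normal crossbred minus Tharparkar, SE 0.30, limma adjusted p = 0.589). The rest of the tachykinin system was hardly detected: of 9 listed genes 5 were on the array and 0 were kept. TACR3, the receptor of neurokinin B, was well above background on 0 of 8 arrays. TACR2, another tachykinin receptor, was well above background on 3 lame arrays, 1 normal crossbred array and 1 Tharparkar array.

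PNOC separated normal crossbred arrays from both other groups. Its level was -2.12 and -2.05 on the lame R1 arrays and -1.70 and -2.02 on the lame R2 arrays. On the normal crossbred arrays the probe was not well above background (-6.62 and -7.10), and on the Tharparkar arrays it read -2.79 and -2.74. Lame arrays were highest, Tharparkar arrays close below them, and the normal crossbred arrays far below both. Against normal crossbred arrays PNOC was at least 6.76-fold higher in lame arrays on the scale used here. A bound of this kind replaces the dim group's value by the lowest signal that was well above background on the same array, and it holds for that scale only. With normexp background correction, whose offset shrinks differences of dim probes, the log2 difference was 1.07, which is less than the bound. Against Tharparkar arrays the lame mean was 0.79 higher (1.73-fold), a difference that was 0.35 after quantile normalization and turned to -0.09 with normexp background correction. PNOC was at least 3.90-fold lower in normal crossbred than in Tharparkar arrays, a bound that was not tested. The measured difference was -4.09 (limma adjusted p = 0.00014).

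OPRL1, the receptor of nociceptin, was measured in all groups, with mean levels of -0.71 in lame, -0.68 in normal crossbred and 0.43 in Tharparkar arrays. Its lame minus normal crossbred difference was -0.03 (SE 0.47, limma adjusted p = 0.984). POMC, the precursor of ACTH and beta-endorphin and the other kept gene of the 10 opioid genes on the array, differed by -0.23 (adjusted p = 0.347). The opioid precursors PDYN and PENK, the receptors OPRM1 and OPRD1 and the prohormone convertase PCSK1 were well above background on 0 of 8 arrays.

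CPXM2 stood far above both normal groups in lame arrays. It read -0.67 and -0.87 on the lame R1 arrays and -0.08 and -0.27 on the lame R2 arrays. On the normal crossbred arrays it was not well above background (-5.53 and -5.70), and on the Tharparkar arrays it read -3.50 and -3.91. The order was lame, Tharparkar, normal crossbred, without overlap between any of the groups. CPXM2 was at least 19.1-fold higher in lame than in normal crossbred arrays, although the log2 difference with normexp, 2.01, lies below that bound. It was 9.37-fold higher in lame than in Tharparkar arrays (log2 difference 3.23, and 1.17 with normexp). It was at least 2.04-fold lower in normal crossbred than in Tharparkar arrays, a bound that was not tested. The measured difference was -1.91 (limma adjusted p = 0.00545), a call that was lost with normexp and with the array median, among other alternatives. The second CPXM2 probe was well above background on 1 lame array, lame R2_1, and on 0 normal arrays, and gives no measured difference. Of 13 other M14 carboxypeptidases 8 were on the array and 1 was kept. That gene, CPB2, a plasma carboxypeptidase that acts on fibrin, was lower in lame arrays, by -2.55 against normal crossbred (adjusted p = 0.0217) and -2.41 against Tharparkar (adjusted p = 0.0139), and was well above background on 2 of 4 lame arrays. CPXM1, the closest relative of CPXM2 on the list, was well above background on 2 lame arrays and on 0 normal arrays.

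At the cell surface, LYPD8 had the tightest lame values of the set. It read 0.38 and 0.37 on the lame R1 arrays and 0.18 on each lame R2 array. It read -2.55 and -2.53 on the normal crossbred arrays and -2.17 and -2.32 on the Tharparkar arrays. Lame and normal arrays did not overlap and both lame RNA samples gave nearly the same level. The lame mean of 0.28 ± 0.12 (SD, n = 4 arrays) was 2.82 above normal crossbred (7.05-fold) and 2.52 above Tharparkar arrays (5.74-fold). With normexp these differences were 1.75 and 1.18. Normal crossbred minus Tharparkar was -0.30 (SE 0.16, limma adjusted p = 0.242).

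LYPD8 belongs to the Ly6/uPAR family of small, mostly membrane-anchored proteins. Of 27 other family genes 16 were on the array and 8 were kept. In lame against normal crossbred arrays 3 of the 8 rose and 1 fell, against 3.29% and 6.33% of all genes. LY6G6E rose by 1.78 (SE 0.28, adjusted p = 0.0108) and CD59, which shields cells from the complement membrane attack complex, rose by 1.62 (SE 0.33, adjusted p = 0.026, and 0.0547 with slide as a block). LY6G6F, which is found on platelets, rose by 1.40 (SE 0.30, adjusted p = 0.0315, and 0.0608 with the block). PLAUR, the urokinase receptor, fell by 2.91 on the log2 scale (SE 0.35, adjusted p = 0.00388). Against Tharparkar arrays 4 rose and 1 fell, where 12.6% and 10.7% of all genes did. LY6G6E was at least 5.14-fold higher, and its measured difference was 2.98 (adjusted p = 0.000737). CD59 rose by 1.86 (adjusted p = 0.00813) and LY6G6C by 1.47 (adjusted p = 0.0384, and 0.0668 with slide as a block). PLAUR was lower by a log2 difference of -4.42 (adjusted p = 0.000381). The family median was 1.09 in the first comparison and 0.94 in the second, against -0.04 and -0.01 over all genes.

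EHD1 was the gene whose probes differed in direction. The probe used, A_73_P035391, read 2.07 and 2.47 on the lame R1 arrays and 1.93 and 2.18 on the lame R2 arrays. It read 0.37 and 0.49 on the normal crossbred arrays and -0.08 and 0.11 on the Tharparkar arrays. On this probe the lame arrays stood above both normal groups, by 1.73 over normal crossbred (3.32-fold) and 2.14 over Tharparkar (4.42-fold).

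The other 3 EHD1 probes, all well above background on all 8 arrays, gave a different order. A_73_P440681 read 0.50 to 0.70 on the lame arrays, 0.95 and 1.02 on the normal crossbred arrays and 1.36 and 1.26 on the Tharparkar arrays, so lame was lowest there. A_73_P492573 read -2.25 to -0.91 on the lame arrays, -1.90 and -1.99 on the normal crossbred arrays and -0.40 and -0.52 on the Tharparkar arrays. A_73_P202072 read -1.996 to -1.04 on the lame arrays, -1.89 and -2.01 on the normal crossbred arrays and -0.73 and -0.95 on the Tharparkar arrays. On both of these the lame R1 arrays lay level with normal crossbred and the Tharparkar arrays were highest. The lame minus normal crossbred difference was thus -0.38, 0.39 and 0.45 on the 3 probes against 1.73 on the probe used, and lame minus Tharparkar was -0.71, -1.10 and -0.67 against 2.14. With the mean of the 4 probes EHD1 differed by 0.55 from normal crossbred and by -0.08 from Tharparkar arrays. The files pair the 4 probes with 1 transcript accession and give no probe sequence, so which part of EHD1 each one reads was not tested. CDC42BPG, a nearest measured neighbour of EHD1 in RefSeq order, was lower in lame than in normal crossbred arrays (-1.07, adjusted p = 0.00876).

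EHD1 acts with Rab11 and Rab8 carriers, MICALL1 and the PACSIN proteins. Of 14 such genes 13 were on the array, 10 were kept and 0 were called in lame against normal crossbred arrays (1 at an unadjusted p under 0.05), with a median of 0.15. Its paralogs EHD3 (0.24, adjusted p = 0.751) and EHD4 (0.08, adjusted p = 0.836) had small differences, and PACSIN1 had 1.60 (adjusted p = 0.059). Against Tharparkar arrays RAB11A, a GTPase of recycling endosomes, fell (-0.60, adjusted p = 0.0445, and 0.0649 with slide as a block).

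CORO1B stood far above normal crossbred arrays on the probe used. Its probe read 1.06 and 1.08 on the lame R1 arrays and 0.86 and 0.63 on the lame R2 arrays. It read -4.23 and -4.30 on the normal crossbred arrays, and was not well above background on the Tharparkar arrays (-5.57 and -5.68). Its raw signal was 575 to 595 on the 4 lame arrays and 56 to 72 on the 4 normal arrays. The lame mean of 0.91 ± 0.21 (SD, n = 4 arrays) was 5.17 above normal crossbred arrays (36.0-fold, and 2.70 with normexp) and at least 37.0-fold above Tharparkar arrays. Against Tharparkar arrays the log2 difference was 2.18 with normexp and 3.78 with the mean of the kept probes, both below that bound. Normal crossbred exceeded Tharparkar by at least 1.03-fold, a bound that was not tested. The measured difference of 1.36 (limma adjusted p = 0.0045) lay between dim signals and turned to -0.52 with normexp.

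The other CORO1B probes did not show a gap of that size. A_73_P327226 read -3.92 and -4.39 on the lame R1 arrays, -2.97 and -1.85 on the lame R2 arrays and -4.06 and -4.58 on the normal crossbred arrays. It was not well above background on the Tharparkar arrays (-4.40 and -4.23). Its lame mean lay 1.04 above normal crossbred. The difference was 0.17 in lame R1, against 1.91 in lame R2, and fell to 0.56 when the lame R2_2 array was left out. The third probe was well above background on 2 lame arrays and on 0 normal arrays. The probe carrying the 36.0-fold difference was therefore not matched by either of the other 2, which were both dim. On the lame R1 arrays A_73_P327226 had raw signals of 77 and 71, against negative control medians of 60.5 and 54. How well these 2 probes read CORO1B was not tested.

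CORO1B is one of the coronins, which bind actin and, with cofilin and slingshot phosphatases, regulate branches made by the Arp2/3 complex. Of 21 such genes 18 were on the array and all 18 were kept. In lame against normal crossbred arrays 0 rose and 2 fell, against 3.29% and 6.33% of all genes. ARPC3, an Arp2/3 subunit, fell by a log2 difference of -2.31 (SE 0.15, adjusted p = 0.000447). CTTN, cortactin, fell by -2.67 (adjusted p = 0.0194, well above background on 2 of 4 lame arrays). The other 6 measured Arp2/3 subunit genes of the ARPC series had differences between -0.70 (ARPC5L) and 0.48 (ARPC5) and were not called. Of the other coronins CORO1A (-0.28, adjusted p = 0.281) and CORO1C (-0.59, adjusted p = 0.161) were not called against normal crossbred, and both fell against Tharparkar arrays, CORO1A by a difference of -1.01 (adjusted p = 0.00375) and CORO1C by -0.89 (adjusted p = 0.0318, and 0.0565 with slide as a block). Against Tharparkar arrays ARPC3 fell too (-2.14, adjusted p = 0.00024) and CFL2, a cofilin, rose by 1.08 (adjusted p = 0.026).

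**Figure D2:**
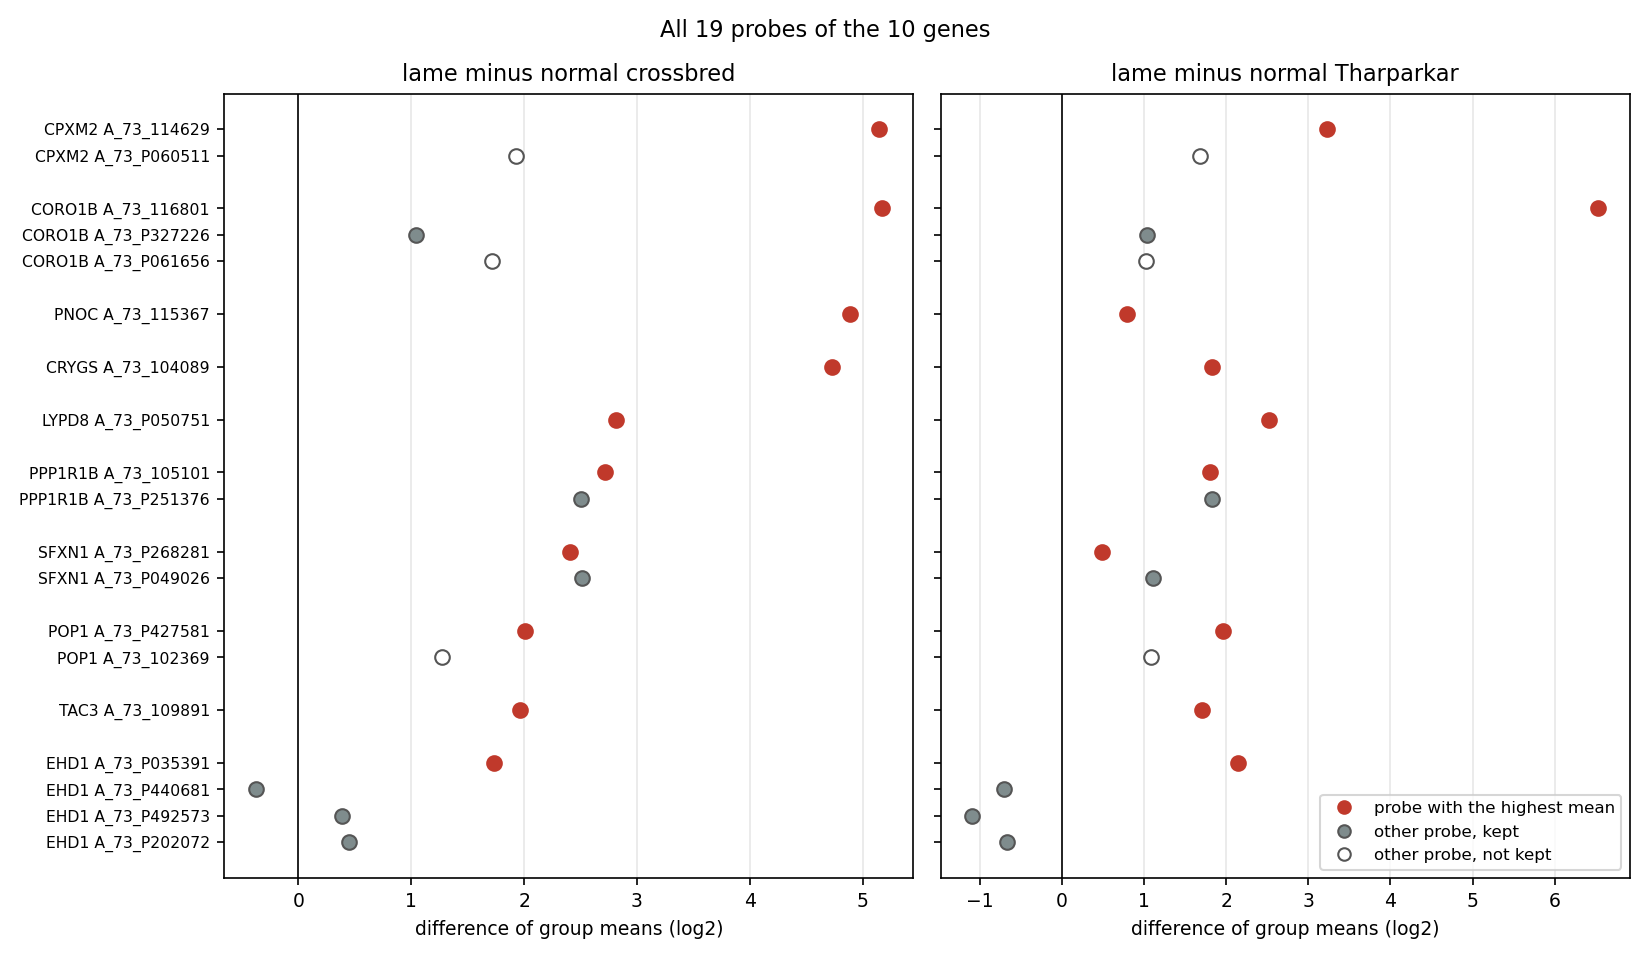
Difference of group means (log2, horizontal axis) for all 19 probes of the 10 genes, lame minus normal crossbred on the left and lame minus normal Tharparkar on the right. Red points are the probes used, grey points other kept probes and white points probes not kept. The EHD1 probes fall on both sides of 0, and the CORO1B probe used lies far from the other 2. Differences of CPXM2, PNOC and CORO1B against a group not well above background are plotted as measured and are not folds.

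Over the 5847 genes with at least 2 kept probes, the largest and smallest probe of a gene differed by a median of 0.47 in lame minus normal crossbred. This spread was 2.11 for EHD1, exceeded by 1.3% of those genes, and 4.13 for CORO1B, exceeded by 0.0855%. It was 0.21 for PPP1R1B and 0.10 for SFXN1, whose 2 probes gave nearly the same difference. Of the 150 genes called higher in lame arrays with at least 2 kept probes, 8 had a kept probe at or below 0, which is 5.33% and includes EHD1. CRYGS, LYPD8, TAC3 and PNOC have 1 probe each, so probe agreement could not be checked for them.

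PPP1R1B was high in one lame RNA sample more than in the other. It read 2.53 and 2.35 on the lame R1 arrays and 0.80 on each lame R2 array. It read -1.09 and -1.10 on the normal crossbred arrays and -0.16 and -0.20 on the Tharparkar arrays. All 4 lame arrays lay above all normal arrays, with lame R1 above lame R2 by 1.64, a gap exceeded by 4.12% of all genes. The lame mean was 2.72 above normal crossbred (6.59-fold), 3.54 for lame R1 and 1.90 for lame R2. It was 1.80 above Tharparkar arrays (3.48-fold), 2.62 for lame R1 and 0.98 for lame R2. The second probe had the same order: 0.10 and -0.12 on lame R1, -1.36 and -1.15 on lame R2, -3.01 and -3.26 on normal crossbred and -2.14 and -2.76 on Tharparkar arrays. Normal crossbred minus Tharparkar was -0.92 (SE 0.62, limma adjusted p = 0.351).

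Of 24 genes of dopamine receptors, protein phosphatase 1 and its inhibitors and the kinases that act on DARPP-32, 21 were on the array and 14 were kept. In lame against normal crossbred arrays 0 of the 14 were called in the limma fit (3 at an unadjusted p under 0.05), with a median of -0.02. The catalytic subunits PPP1CA (0.06), PPP1CB (-0.14) and PPP1CC (-0.01) had small differences. CDK5, a kinase that phosphorylates DARPP-32, fell against Tharparkar arrays (-0.62, adjusted p = 0.0341, and 0.0513 with slide as a block) and was lower in normal crossbred than in Tharparkar arrays as well (-0.70, adjusted p = 0.0427, and 0.0638 with the block). The dopamine receptors DRD1 and DRD2 were well above background on 2 lame arrays and 0 normal arrays, and DRD5 on 0 arrays. STARD3, a nearest measured neighbour of PPP1R1B, differed by 0.67 (adjusted p = 0.171). CDK12, the neighbour on the other side, differed by 1.25 from normal crossbred (adjusted p = 0.116) and by 1.39 from Tharparkar arrays (adjusted p = 0.0549).

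CRYGS differed between all 3 groups. It read 3.22 and 3.10 on the lame R1 arrays and 2.87 and 2.47 on the lame R2 arrays. It read -1.81 and -1.83 on the normal crossbred arrays and 1.17 and 1.00 on the Tharparkar arrays. The 3 groups were fully separate, in the order lame, Tharparkar, normal crossbred. The lame mean of 2.91 ± 0.33 (SD, n = 4 arrays) was 26.6-fold above normal crossbred and 3.55-fold above Tharparkar arrays (log2 difference 1.83). Normal crossbred was below Tharparkar by a log2 difference of -2.91 (SE 0.25, limma adjusted p = 0.000745), -2.98 within slide 1 and -2.83 within slide 2.

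Other crystallins did not share this profile. Of 20 listed genes 16 were on the array, 7 were kept and 0 were called in lame against normal crossbred arrays (2 at an unadjusted p under 0.05), with a median of -0.10. CRYBB1, a beta crystallin, differed by -0.44 (adjusted p = 0.342), and the gamma crystallins CRYGB and CRYGD were well above background on 0 of 8 arrays. CRYM, a thyroid hormone binding protein counted with the crystallins, was lower in lame (-2.10, adjusted p = 0.00529) and in normal crossbred arrays (-2.52, adjusted p = 0.00545) than in Tharparkar arrays. CRYL1 fell in lame against Tharparkar arrays (-0.69, adjusted p = 0.0358, and 0.0598 with slide as a block). Of 8 lens markers on the array 2 were kept, with mean list levels of -4.63 to -2.37 on the lame arrays, -4.75 to -4.70 on the normal crossbred arrays and -4.61 to -4.56 on the Tharparkar arrays. These means include the dim markers that were not kept, and 0 of the 2 kept markers were called in lame against either normal group. The lens membrane protein LIM2 was well above background on 0 of 8 arrays.

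POP1 was raised to a similar extent over both normal groups. It read -0.76 and -0.53 on the lame R1 arrays and -1.72 and -1.24 on the lame R2 arrays. It read -3.04 and -3.10 on the normal crossbred arrays and -3.14 and -2.89 on the Tharparkar arrays, which overlapped with each other and not with the lame arrays. The lame mean lay 2.01 above normal crossbred (4.02-fold) and 1.95 above Tharparkar (3.87-fold), and with normexp 1.02 and 0.52. The normal groups differed by -0.05 (SE 0.37, limma adjusted p = 0.941). A second POP1 probe was well above background on 0 of 8 arrays. Of 11 other RNase P and RNase MRP subunit genes 8 were on the array and kept, and 0 were called in lame against either normal group (2 at an unadjusted p under 0.05 in each comparison). Their medians were 0.00 and -0.07, with RPP38 the highest against normal crossbred at 0.94 (adjusted p = 0.1). POP4 was higher in normal crossbred than in Tharparkar arrays (0.85, adjusted p = 0.0134).

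SFXN1 was the gene of the set that did not separate lame from Tharparkar arrays. It read -0.62 and -0.74 on the lame R1 arrays and 0.51 and 0.57 on the lame R2 arrays. It read -2.44 and -2.52 on the normal crossbred arrays and -0.42 and -0.70 on the Tharparkar arrays. Lame R1 lay among the Tharparkar arrays and lame R2 above them, while the normal crossbred arrays were lowest. The lame mean was 2.41 above normal crossbred (5.31-fold), 1.80 for lame R1 and 3.02 for lame R2. Against Tharparkar arrays the difference was 0.49 (-0.12 in lame R1, 1.10 in lame R2), and it turned to -0.07 with the array median in place of the 75th percentile. The second probe read -2.23 and -2.01 on lame R1, -2.05 and -1.60 on lame R2, -4.37 and -4.60 on normal crossbred and -3.09 and -3.06 on Tharparkar arrays. On that probe every lame array lay above every Tharparkar array, with a mean difference of 1.10. Normal crossbred minus Tharparkar was -1.92 (SE 0.48, limma adjusted p = 0.032, and adjusted p = 0.0593 with slide as a block), -2.02 within slide 1 and -1.82 within slide 2.

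The serine that SFXN1 carries feeds one-carbon metabolism. Of 15 sideroflexin and serine pathway genes 14 were on the array and 12 were kept, with medians of -0.13 against normal crossbred and -0.09 against Tharparkar arrays. SFXN3, another sideroflexin, fell in lame against normal crossbred arrays (-1.004, SE 0.16, adjusted p = 0.0112), and SFXN2 (0.05) and SFXN4 (-0.05) had small differences. Against Tharparkar arrays SHMT1, the cytosolic serine hydroxymethyltransferase, rose by 2.24 (adjusted p = 0.000502) and PSAT1, a serine synthesis enzyme, fell (-0.95, adjusted p = 0.0249). Both differed in the same direction between normal crossbred and Tharparkar arrays (2.34 with adjusted p = 0.000924 and -0.94 with adjusted p = 0.048, the second 0.0735 with slide as a block).

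**Figure D3:**
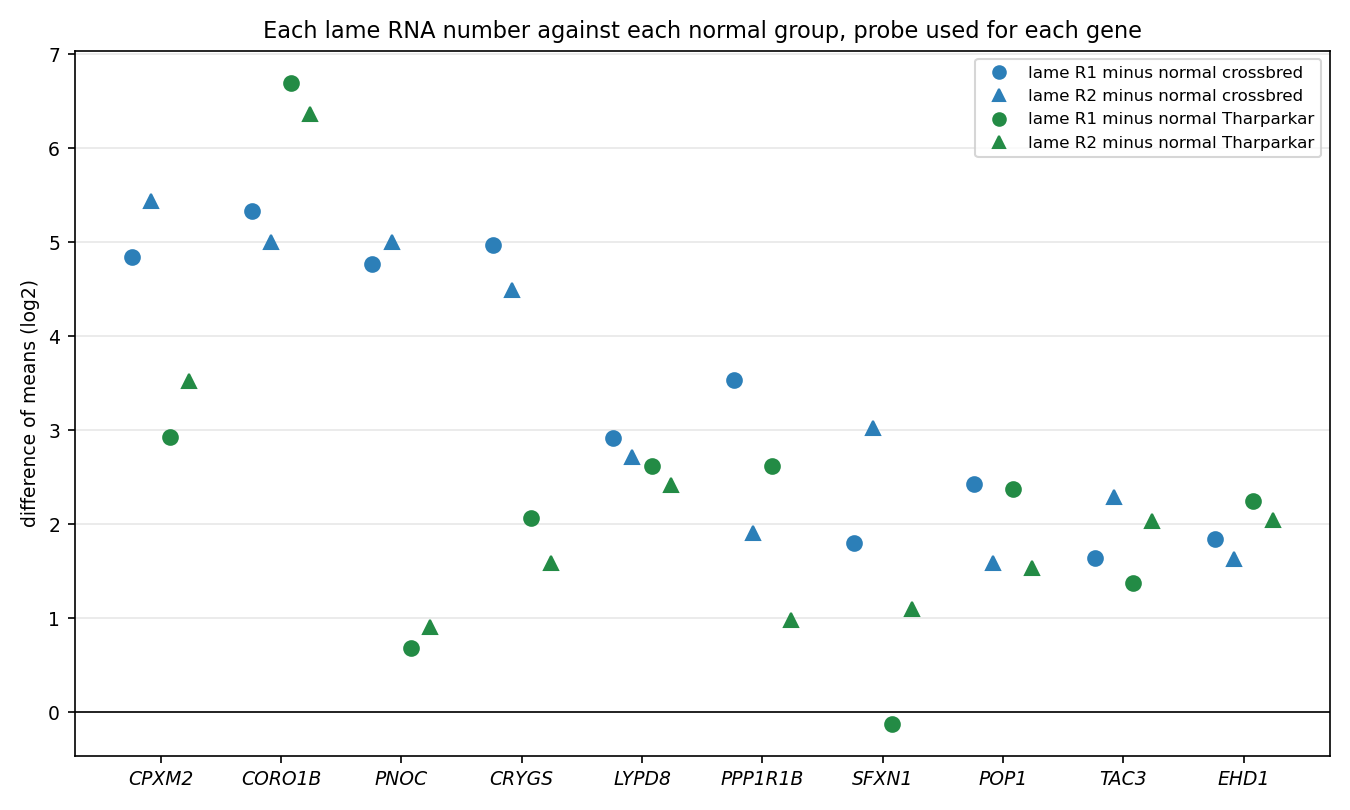
Difference of means (log2, vertical axis) of each lame RNA sample, 2 arrays each, from each normal group for the 10 genes. Circles are lame R1 and triangles lame R2, blue against normal crossbred and green against normal Tharparkar. All differences are above 0 except that of lame R1 SFXN1 against Tharparkar (-0.12). PPP1R1B and SFXN1 show the widest gaps between the lame RNA samples.

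The 2 lame RNA samples were set against each other for every gene. Lame R1 minus lame R2 was 1.64 for PPP1R1B, 0.83 for POP1, 0.49 for CRYGS, 0.33 for CORO1B, 0.21 for EHD1 and 0.20 for LYPD8. It was -0.23 for PNOC, -0.59 for CPXM2, -0.65 for TAC3 and -1.22 for SFXN1. The median size of this gap was 0.54 over the 10 genes, against 0.50 over all genes. Each lame RNA sample alone lay above the normal crossbred mean for all 10 genes, at the least by 1.59 (POP1, lame R2). Within slide 1 and within slide 2 each of the 10 differences kept its sign against both normal groups. If the titles are read rightly, both slides carry the same RNA and are no independent repeats. For POP1 lame minus normal crossbred was 1.80 within slide 1 and 2.21 within slide 2, and for LYPD8 2.83 and 2.81. Without lame R2_2, the brightest array, the difference from normal crossbred was 4.88 for CRYGS, 2.99 for PPP1R1B and 1.73 for EHD1.

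The comparison of the normal groups is not independent of how the genes were picked. It shares its arrays with both other comparisons, and a low normal crossbred value helped a gene to be picked, which favours normal crossbred below Tharparkar. Its counts and p-values are therefore descriptions. Of the 10 genes, 4 were called lower in normal crossbred than in Tharparkar arrays (CRYGS, PNOC, CPXM2 and SFXN1) and 1 higher (CORO1B). Of all genes 6.89% were called lower and 11.8% higher. The other 5 genes were not called. For CRYGS, PNOC, CPXM2 and SFXN1 the lame crossbred level was therefore farther from the normal arrays of crossbred cows than from those of Tharparkar cows, and each normal group rests on what is read as 1 RNA sample. The lame minus normal crossbred differences of all 10 genes rest on that single normal crossbred sample. A trait of that sample and an effect of lameness cannot be told apart in them.

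**Figure D4:**
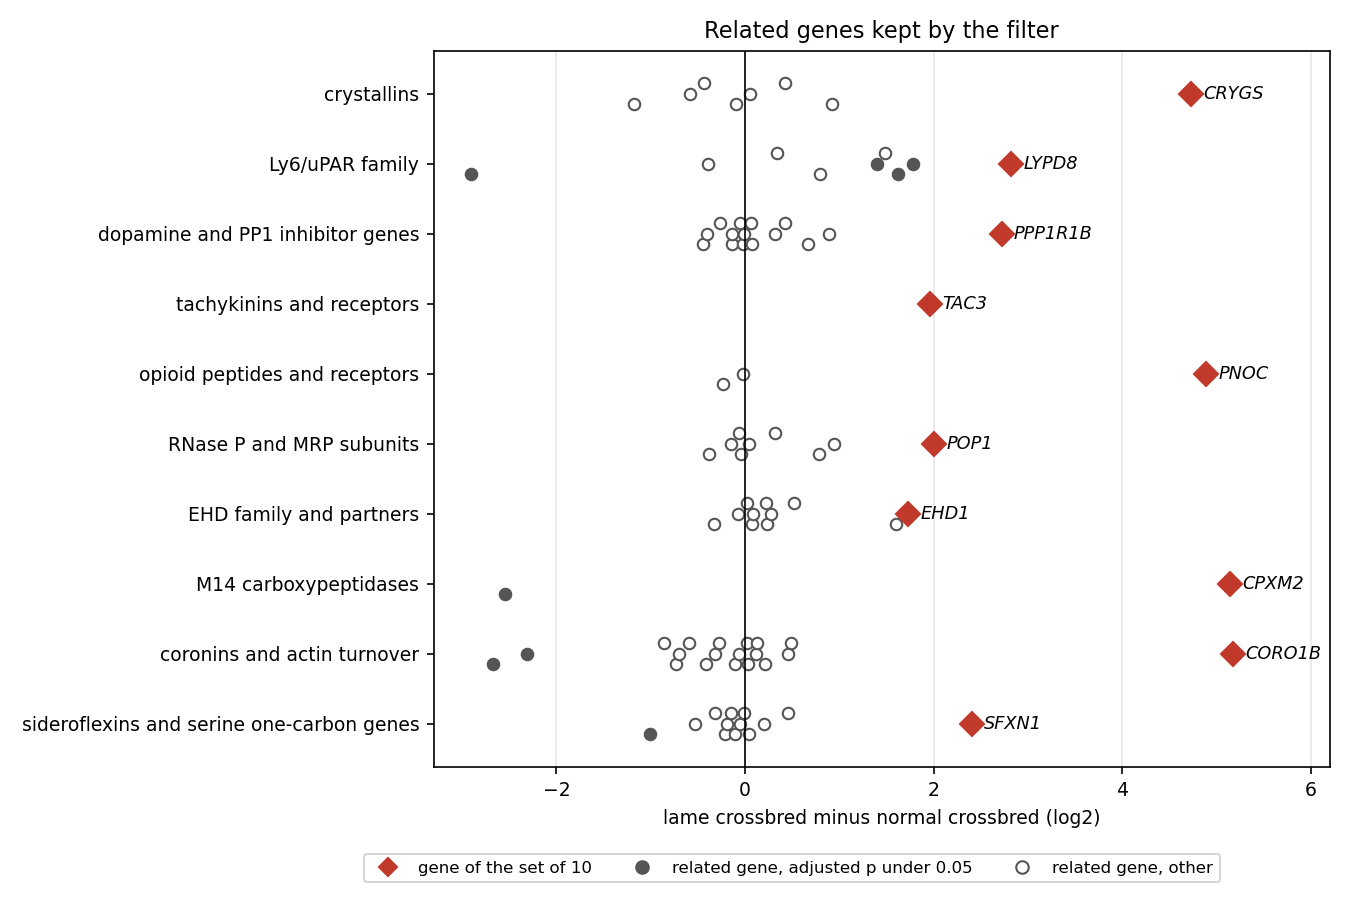
Lame minus normal crossbred difference (log2, horizontal axis) of each of the 10 genes (red diamonds) and of the kept genes of its family or pathway (circles, filled at an adjusted p under 0.05). Of 80 related genes 3 lie above 0 and 5 below 0 among the filled circles, and the tachykinin list has no kept gene. PNOC and CPXM2, not well above background in normal crossbred arrays, are plotted as measured.

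Over all 10 lists, 162 related genes held 127 on the array and 80 kept. In lame against normal crossbred arrays 3 of the 80 rose (3.75%, against 3.29% of all genes) and 5 fell (6.25%, against 6.33%). Against Tharparkar arrays 6 rose (7.5%, against 12.6%) and 10 fell (12.5%, against 10.7%). The median of the 80 was -0.03 against normal crossbred and -0.15 against Tharparkar arrays. These shares were near those of all genes, and 3 of the 3 related genes that rose against normal crossbred belong to the Ly6/uPAR family, where the calls of CD59 and LY6G6F were lost with slide as a block.

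The nearest measured genes on either side of each of the 10 in RefSeq order were tested too, 20 in all. Against normal crossbred arrays 0 of the 20 rose and 2 fell, against 3.29% and 6.33% of all genes. An unadjusted p under 0.05 was found for 8 of the 20, and for 3902 of all 15127 genes. The 2 that fell were CDC42BPG (-1.07) and ATG2A (-0.69, adjusted p = 0.0468, and 0.0828 with slide as a block), both beside EHD1. Against Tharparkar arrays CABP4, beside CORO1B, was higher in lame arrays (adjusted p = 0.0212) and was not well above background on the Tharparkar arrays. OAT, a neighbour of CPXM2, fell against Tharparkar (-0.95, adjusted p = 0.00452). PTPRCAP, the other neighbour of CORO1B and a lymphocyte gene, differed by 0.02 from normal crossbred (adjusted p = 0.98).

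Genes with the most similar profile were ranked by Pearson's correlation with each of the 10 over the 8 arrays, among kept genes with an SD of at least 0.5. The 8 points are duplicates of what is read as 4 RNA samples, so these values are descriptions. CRYGS was most like CDKL4, a kinase gene (r = 0.995), and C1QA, a chain of complement C1q (r = 0.986). CPXM2 was most like C1QB, another C1q chain (r = 0.992), and SLC43A3 (r = 0.991). CORO1B and the EHD1 probe used were both most like FKBP5, a cochaperone of the glucocorticoid receptor (r = 0.994 and r = 0.981). LYPD8 was most like NELL2 (r = 0.992), PPP1R1B like TFF2, a mucosal trefoil peptide (r = 0.996), and TAC3 like LRRC25 (r = 0.986). PNOC was most like IFI47, an interferon-induced GTPase (r = 0.99), POP1 like SYMPK (r = 0.986), and SFXN1 like KLHL17 (r = 0.988). C1QA differed by 1.32 and C1QB by 1.55 between lame and normal crossbred arrays, against 4.73 for CRYGS.

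Markers of cell types moved between the same groups. Over 11 kept monocyte markers the median was 0.75 in lame minus normal crossbred and 0.26 in lame minus Tharparkar, with 3 higher and 1 lower in each. Of all genes 3.29% were called higher and 6.33% lower in the first comparison, and 12.6% and 10.7% in the second. CSF1R, C1QA and C1QB were higher in both. CD14 was lower, by -1.56 (limma adjusted p = 0.0229) and -1.62 (adjusted p = 0.0103). CD68 differed by -0.70 in each and was not called. The mean level of the monocyte list was 2.38 to 2.85 on lame, 2.17 to 2.19 on normal crossbred and 2.48 to 2.53 on Tharparkar arrays. Granulocyte markers were lower, with medians of -1.73 and -2.42, list means of -2.93 to -2.24 on lame, -1.25 to -1.23 on normal crossbred and -0.52 to -0.46 on Tharparkar arrays, and 8 and 9 of 12 called lower, against 6.33% and 10.7% of all genes. Against normal crossbred arrays 1 granulocyte marker, PRSS57, was called higher (3.49, limma adjusted p = 0.0082), and against Tharparkar arrays 0 were. T cell medians were -0.45 and 0.43, NK cell medians -0.81 and 0.47, platelet medians 0.45 and 1.98, and erythroid medians 0.88 and 0.91. Of 10 neuron markers 4 were kept, and GAD1 and ELAVL4 were well above background on 0 of 8 arrays. The neuron list mean was -5.02 to -3.37 on lame, -4.97 to -4.52 on normal crossbred and -4.62 to -4.42 on Tharparkar arrays. Of the 4 kept neuron markers 0 were called higher and 2 lower in lame against normal crossbred arrays, and 1 higher and 2 lower against Tharparkar arrays. The part of any of these cell types in the levels of the 10 genes was not tested.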

How the data were processed

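RNA of bovine blood mononuclear cells was hybridised to 8 Agilent 1-colour arrays on 2 slides, each holding arrays of all 3 groups. The authors deposited the scanner output of each array: per the file headers, the processed signal is an intensity that Agilent Feature Extraction 12.0.3.1 background-subtracted and detrended, with no scaling between arrays (the submitters' processing notes name version 11.5.1.1). A second deposited file gives log2 values without naming their scale or centring. Each of its columns followed log2 signal minus the 75th percentile minus the probe's median (r above 0.9999), with column medians of -0.12 to 0.88, and a higher value means a brighter spot. Array number limits the precision.

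Here log2 of the processed signal minus each array's 75th percentile was computed over 43653 noncontrol probes. Left out were control spots and 56 probes with an outlier flag, and 0 spots were saturated. The filter kept probes that were well above background throughout 1 group or more. Accessions without version matched 1 gene of RefSeq assembly ARS-UCD2.0 for 27054 probes, and 16599 were not matched to 1 gene. That table served for names and neighbour order only, since the array annotation is older. A gene took its kept probe with the highest mean. All comparisons used limma (version 3.58.1, under R 4.3.3; lmFit, eBayes, 2-sided, 3 group means, no covariate, 5 residual and 2.35 prior degrees of freedom, Benjamini-Hochberg over 15127 genes, calls at an adjusted p under 0.05). The script was tested on simulated data.

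The 10 genes, their related lists and the marker lists were chosen with earlier results of these data known. Named besides the 10 genes were their 2 most correlated genes, up to 2 called genes of a related list with the largest difference, all genes of lists with at most 5, and the nearest measured neighbours; other genes named were chosen after their values were seen. Arrays of the same slide deviated together (correlations of 0.27, 0.21 and 0.24), so the slide numbers pair the arrays, as the file headers bear out. Alternatives were normexp (offset 50), quantile normalization, the array median, the mean of a gene's probes, 2 other filters, averaged duplicates, slide as a block, the authors' table, array weights and leaving out each array. The files held no mean spot signal, so normexp used the median signal.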

Additional observations from a re-analysis of the deposited data

How the results depend on the processing

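Every lame minus normal crossbred difference of the 10 genes kept its sign under all alternatives run. The counts of the 10 called moved. With the array median in place of the 75th percentile, 5, 3 and 2 of the 10 were called in lame against normal crossbred, lame against Tharparkar and normal crossbred against Tharparkar, against 10, 9 and 5. That centring moved the median of all genes to -0.55 and -0.57 in the lame comparisons, and the split of calls to 49 higher and 321 lower (497 and 958 with the 75th percentile) against normal crossbred and to 190 and 470 (1905 and 1623) against Tharparkar. With normexp, which adds 50 to the intensity and so shrinks differences of dim probes, the split was 140 and 506, and 734 and 1274. It called 9, 7 and 2 of the 10 in the 3 comparisons. With no filter on dim probes 7, 7 and 4 were called, and PPP1R1B, POP1 and SFXN1 were lost against normal crossbred. Averaged duplicates lost TAC3, POP1 and EHD1 against normal crossbred. Averaging duplicates, which leaves 1 value per normal group, gave 4 against Tharparkar and 2 between the normal groups; probes well above background on all 8 arrays gave 2 there, having dropped PNOC, CPXM2 and CORO1B, and array weights gave 8. Leaving out 1 array gave 6 to 10, 5 to 9 and 3 to 5 calls: without either normal crossbred array PPP1R1B, TAC3, POP1 and SFXN1 were lost against normal crossbred, and without Tharparkar R1 PPP1R1B, TAC3, PNOC and POP1 against Tharparkar. Between the normal groups, SFXN1 was lost without any 1 normal array, and CPXM2 without Tharparkar R1 or normal crossbred R2. Such fits take the lone array to vary like the other groups. Beside the 8 called with array weights between the normal groups, 4944 of all 15127 genes were called higher and 4490 lower. With no filter, 124 of all 26640 genes were called higher and 232 lower against normal crossbred. The no-filter calls were 776 and 575 against Tharparkar, and 697 and 302 between the normal groups.

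Slide as the replicate block gave 9, 8 and 4 calls: PPP1R1B was lost against both normal groups and SFXN1 between them. Among called values and SFXN1, those that turned sign were PNOC in lame minus Tharparkar (-0.088 with normexp), EHD1 in lame minus Tharparkar (-0.081 with the mean of its probes), SFXN1 in lame minus Tharparkar (-0.065 with the array median and -0.068 with array weights) and CORO1B in normal crossbred minus Tharparkar (-0.52 with normexp). Of differences not called between the normal groups, EHD1 turned from 0.41 to -0.63 with the mean of its probes and POP1 from -0.05 to 0.075 without Tharparkar R2. The cause was not tested for SFXN1 and PNOC.

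Of the related genes, 8 were called against normal crossbred, 16 against Tharparkar and 10 between the normal groups. The counts were 5, 7 and 2 with normexp, 4, 5 and 1 with the array median, 3, 8 and 2 with no filter, 3, 6 and 2 with duplicates averaged, and 40, 36 and 43 with array weights. The mean of a gene's probes gave 26 against Tharparkar and 21 between the normal groups, and the replicate block gave 6 between them. Leaving out 1 array gave 1 to 11, 4 to 17 and 1 to 14. Calls over all 15127 genes moved with the setting as well. With array weights 3731 were higher and 3575 lower against normal crossbred, 4665 and 3806 against Tharparkar, and 4944 and 4490 between the normal groups. The counts of related genes are therefore not read as a result about their lists. Probes near background limit PNOC, CPXM2, CORO1B and the extra probes of POP1, CPXM2 and CORO1B.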
